A study of Mus musculus with 12 samples.

Results

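The comparison described here sets SSEA1+ CD73- Sca1+ cells, sorted on day 3 of reprogramming (labelled d3 Ineff, called Sca1+ CD73- cells below), against mouse embryonic fibroblasts (MEF), the cells from which reprogramming starts. Its members were taken from the sample labels and are 4 of the series' 12 RNA-seq libraries, 2 replicates of each group. The libraries come from poly-A RNA of mouse cells of strain 129SV/Jae/C57BL6J. MEF were grown in MEF medium, while reprogramming took place in ES medium to which dox and AA were added, so medium, factors and sort differ together between the groups and their parts in a change cannot be told apart. The other group of day 3, SSEA1+ CD73+ Sca1- cells (labelled d3 Eff, called Sca1- CD73+ cells), and SSEA1+ EpCAM- Sca1+ cells of day 6 (labelled d6 Ineff) serve for comparison, and induced pluripotent stem cells (iPSC) and SSEA1+ EpCAM+ Sca1- cells of day 6 enter the fit. The labels give no age of the embryos, leave out how the factors were introduced, and are silent on whether the replicates are separate cultures, so the spread that enters a p-value may be technical.

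Reprogramming turns a fibroblast into a pluripotent stem cell by forced expression of the transcription factors Oct4 (gene Pou5f1), Sox2, Klf4 and Myc. Fibroblasts make and crosslink the extracellular matrix, and an early step of reprogramming is a mesenchymal-to-epithelial transition, in which matrix and contractile genes are lost, E-cadherin and other junction genes are gained, and cell division speeds up. SSEA1, a surface carbohydrate, appears on the fraction of cells that advance. Sca1 (gene Ly6a) is a lipid-anchored surface protein and CD73 (gene Nt5e) a surface enzyme that makes adenosine from AMP. Bulk libraries cannot tell fewer cells of a type from less RNA per cell.

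Gene counts were 20978376 and 9284060 in the MEF libraries and 22476813 and 22506808 in those of the Sca1+ CD73- cells. MEF replicate 2 stood apart: 47.2% of its uniquely placed reads lay outside genes, against 5.10% in replicate 1 and 6.92% and 6.20% in the Sca1+ CD73- libraries. In MEF replicate 2, 14591 genes had a count, against 17912 in MEF replicate 1. Across the 16240 genes tested, log2 levels correlated between replicates at r = 0.950 in MEF and 0.990 in the Sca1+ CD73- cells. Over only the genes with a mean log2 level above 2 in the group, r was 0.875 in MEF and 0.983 in the Sca1+ CD73- cells. Levels below are CPM, a gene's counts relative to all gene counts of its library after TMM scaling, given for replicate 1 and replicate 2 in that order. Changes are log2 differences, Sca1+ CD73- cells minus MEF, from an edgeR fit. Their standard errors (SE) were derived as the size of the difference divided by the square root of its F statistic. They rest on a spread estimated over all 6 groups and do not measure that of the 4 libraries alone. Xist, which silences an X chromosome in female cells, stood at 40.3 and 17.6 CPM in MEF and 57.2 and 51.9 CPM in the Sca1+ CD73- cells (adjusted p = 0.0914), and the 4 Y-linked genes in the gene lists (Ddx3y, Kdm5d, Eif2s3y and Uty) had 0 counts in all 12 libraries.

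Of the genes tested, 2437 (15.0%) were higher and 2439 (15.0%) lower in the Sca1+ CD73- cells than in MEF at an adjusted p under 0.05, together 4876 (30.0%). Without MEF replicate 1, 3942 were higher and 2856 lower, and without MEF replicate 2, 2587 and 3190. Without Sca1+ CD73- replicate 1 or 2, 1532 and 1635 were higher and 1414 and 1370 lower. A change of at least 2-fold was found for 1761 of the higher and 1952 of the lower genes, and one of at least 8-fold for 564 and 753. These shares are the background for every count of list members below. A fit of only the 4 libraries called 2138 genes, 39.9% of them higher. In that fit 33 of the 80 counts of list members above 0 were smaller by more than 1.5 times. Of the 229 called named genes, 36 were tested there but not called. Named genes that its count filter removed are not in this number. The fold of 49 of 188 called named genes with over 3 counts in both groups moved by more than 1.5 times without MEF replicate 1, and that of 29 without MEF replicate 2.

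The genes behind the sort differed in the direction of the gate. Ly6a stood at 112 and 186 CPM in MEF and 639.6 and 869 CPM in the Sca1+ CD73- cells (log2 difference 2.35 ± 0.31 SE, adjusted p = 0.000224), where the gate selects for its product. Nt5e stood at 33.3 and 26.4 CPM in MEF and 2.54 and 4.12 CPM in the sorted cells (log2 difference -3.17 ± 0.35 SE, adjusted p = 6.34e-05), where the gate selects against it. Both pairs of libraries were apart without overlap, and both differences can follow from the gate itself. Fut9, which encodes the fucosyltransferase that completes the SSEA1 sugar, had 0.103 and 0.140 CPM in MEF and 18.8 and 18.96 CPM in the sorted cells. That is a ratio of 167 (95% counting interval 57.0 to 811) against the 3 counts found in MEF. Fut4, a second such enzyme, stood at 4.96 and 6.00 CPM in MEF and 5.73 and 5.61 CPM after the sort (adjusted p = 0.953).

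Among the 12 sorting and surface markers tested, 4 were higher and 4 lower (median log2 difference 0.17). Thy1, a fibroblast surface glycoprotein that is lost early in reprogramming, fell from 579 and 413 CPM to 35.2 and 39.6 CPM (log2 difference -3.73 ± 0.41 SE, adjusted p = 5.91e-05). Epcam, an epithelial adhesion molecule by which the day 6 cells were sorted, rose from 0.568 and 0 CPM to 5.34 and 5.07 CPM (log2 difference 3.70 ± 0.43 SE, adjusted p = 8.9e-05, 9.67 without MEF replicate 1), and Cdh1, which encodes E-cadherin, from 0 and 0.140 CPM to 18.5 and 18.1 CPM. Itgb3, an integrin subunit, fell (log2 difference -2.76 ± 0.44 SE, adjusted p = 0.000717), and so did Cd44, the hyaluronan receptor (log2 difference -0.96 ± 0.26 SE, adjusted p = 0.018), which was not called without either Sca1+ CD73- library. Icam1, Kit and Pecam1 had no more than 4 CPM in any of the 4 libraries and were not called.

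**Figure D1:**
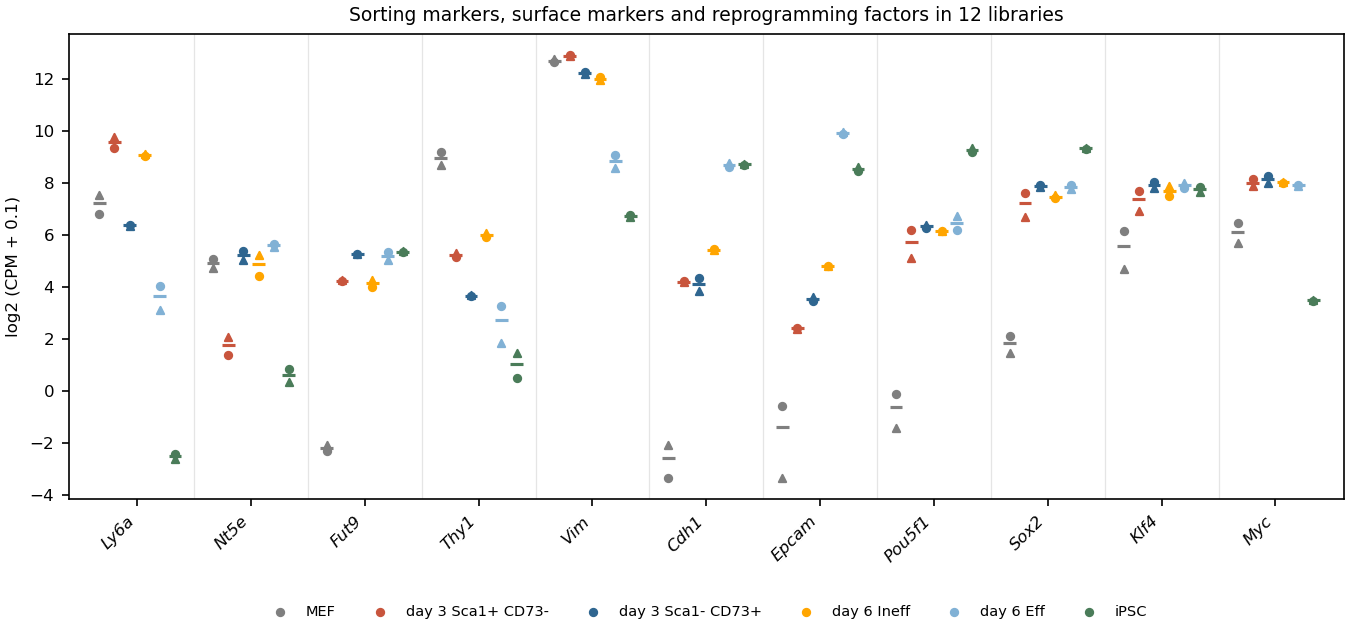
Levels of sorting markers, surface markers and reprogramming factors in 12 libraries, as log2 (CPM + 0.1). Each colour is a group, the circle is replicate 1, the triangle replicate 2 and the bar the log2 of the group mean CPM plus 0.1. Ly6a was highest and Nt5e low in the day 3 Sca1+ CD73- cells, while Thy1 lay below and Fut9 above MEF in both groups of day 3.

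All 4 reprogramming factors were higher than in MEF (median log2 difference 3.61). Pou5f1 stood at 0.826 and 0.279 CPM in MEF and 72.0 and 34.3 CPM in the Sca1+ CD73- cells (log2 difference 6.34 ± 0.47 SE, adjusted p = 4.06e-06, 7.56 without MEF replicate 1 and 5.69 without Sca1+ CD73- replicate 1). Sox2 went from 4.28 and 2.65 CPM to 193 and 103 CPM (log2 difference 5.35 ± 0.34 SE, adjusted p = 1.34e-06). In both genes replicate 1 of the sorted cells was the higher, and neither replicate overlapped MEF. Klf4, which fibroblasts also express, had 70.2 and 25.4 CPM in MEF and 208 and 122 CPM in the sorted cells (log2 difference 1.77 ± 0.40 SE, adjusted p = 0.00602, 2.72 without MEF replicate 1 and 1.17 without MEF replicate 2), a call lost without Sca1+ CD73- replicate 1. Myc had 86.9 and 51.9 CPM in MEF and 280.2 and 232 CPM in the sorted cells (log2 difference 1.88 ± 0.23 SE, adjusted p = 0.000131). The files do not separate introduced copies of these genes from native ones.

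Among the genes eligible for this ranking, the largest rises began from genes with no or almost no reads in MEF. Pcsk1n, an inhibitor of the prohormone convertase that cuts neuropeptide precursors, had no count in MEF and 37.8 and 33.2 CPM in the Sca1+ CD73- cells, at least 314-fold higher against a floor of 3 counts over the MEF libraries (0.113 CPM). Ceacam1, an epithelial adhesion receptor, rose at least 271-fold to 31.7 and 29.5 CPM. Tmprss5, a membrane serine protease, reached 24.0 and 24.6 CPM (at least 215-fold) and Cacna2d2, an auxiliary subunit of calcium channels, 23.7 and 21.7 CPM (at least 201-fold). Exons of Pcsk1n and Cacna2d2 overlap genes on the opposite strand, and the counting ignored strand. Reads in the shared stretch may have been set aside as ambiguous, so these levels are uncertain. L1td1, which binds RNA in pluripotent cells, went from 0.103 and 0.419 CPM to 529 and 495 CPM (log2 difference 11.32 ± 0.37 SE, adjusted p = 1.65e-08, 10.25 without MEF replicate 1 and 12.13 without MEF replicate 2). Aldh3a1, an aldehyde dehydrogenase best known from the cornea, went from 0.206 and 0.140 CPM to 469.8 and 512 CPM (log2 difference 11.31 ± 0.30 SE, adjusted p = 8.19e-09).

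The other rises of this kind were of genes of varied tissues. Plet1, a surface protein of placental and epithelial progenitors, and Dmrtc2, a germ cell factor, had no count in MEF and reached 13.7 and 18.3 CPM and 14.2 and 15.4 CPM. Trh, the precursor of thyrotropin-releasing hormone, had 1 count in MEF and 67.9 and 74.9 CPM in the Sca1+ CD73- cells, a ratio of 1893 (95% counting interval 339 to 74777). Pga5, a pepsinogen, Stum, and Sptssb, a subunit of serine palmitoyltransferase, had no count in MEF and rose at least 81.5-fold, 78.7-fold and 72.7-fold.

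Among the genes eligible for this ranking, the largest falls mostly ended at no counts in the Sca1+ CD73- cells. The floor of 3 counts there is 0.0667 CPM. Tnmd, a tendon membrane protein, had 62.9 and 59.3 CPM in MEF and fell at least 916-fold. Plac8 stood at 28.0 and 91.4 CPM in MEF (at least 895-fold lower in the sorted cells), Fabp4, a fatty acid carrier of adipocytes, at 28.1 and 82.2 CPM (at least 827-fold) and Mogat2, an acyltransferase of fat synthesis, at 43.7 and 63.5 CPM (at least 804-fold). Plac8 and Fabp4 were higher in MEF replicate 2 than in replicate 1. Ndufa4l2, a hypoxia-induced mitochondrial protein whose exons overlap Shmt2, fell at least 854-fold, and Kcnj15, a potassium channel, at least 769-fold. Mfap4 and Acan, a microfibril protein and the cartilage proteoglycan aggrecan, fell at least 427-fold and 421-fold. Alkal1 (a ligand of the receptor Alk), Avpr1a (a vasopressin receptor) and Chrdl1 (a BMP antagonist) fell at least 320.1-fold, 236-fold and 224-fold, with DESeq2 not calling the first 2 of these.

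By level, the largest rises among the genes eligible for this ranking were those of H19 and Igf2, neighbouring imprinted genes of fetal growth. H19, a long non-coding RNA, went from 1695 and 1072 CPM to 15224 and 13232 CPM (log2 difference 3.36 ± 0.30 SE, adjusted p = 1.57e-05). Igf2, an insulin-like growth factor, went from 389 and 213 CPM to 3066 and 2623 CPM (log2 difference 3.24 ± 0.34 SE, adjusted p = 4.37e-05). Igf2os, a transcript on the other strand whose exons overlap those of Igf2, went from 1.65 and 0.419 CPM to 9.10 and 6.65 CPM. Unstranded counts cannot assign reads in the stretch shared by Igf2 and Igf2os. Ccnd2, a D-type cyclin, rose from 929.6 and 780.4 CPM to 2611 and 2589.8 CPM (log2 difference 1.60 ± 0.20 SE, adjusted p = 0.000134), and Gsta4, a glutathione transferase that clears lipid peroxidation products, from 4.13 and 4.75 CPM to 1412 and 1857 CPM (log2 difference 8.54 ± 0.32 SE, adjusted p = 3.45e-08). Hsp90ab1, a chaperone, and Npm1, the nucleolar protein nucleophosmin, rose by 0.82 and 0.85 (adjusted p = 0.0146 and 0.0296), and neither call held without either Sca1+ CD73- library. Snhg12, a host of small nucleolar RNAs, fell from 51.3 and 64.6 CPM to 10.7 and 9.73 CPM (log2 difference -2.50 ± 0.27 SE, adjusted p = 5.38e-05). Zfp469, Ifi30 and Trerf1, which the annotation used here classes as non-coding transcripts, changed as well. Zfp469 fell from 29.4 and 6.42 CPM to 1.71 and 0.543 CPM. Ifi30 fell (log2 difference -1.02), and Trerf1 rose by 1.72 (3.08 without MEF replicate 1 and 1.07 without MEF replicate 2). Zfp469 was not called without MEF replicate 1 or Sca1+ CD73- replicate 2, and Ifi30 not without the latter.

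**Figure D2:**
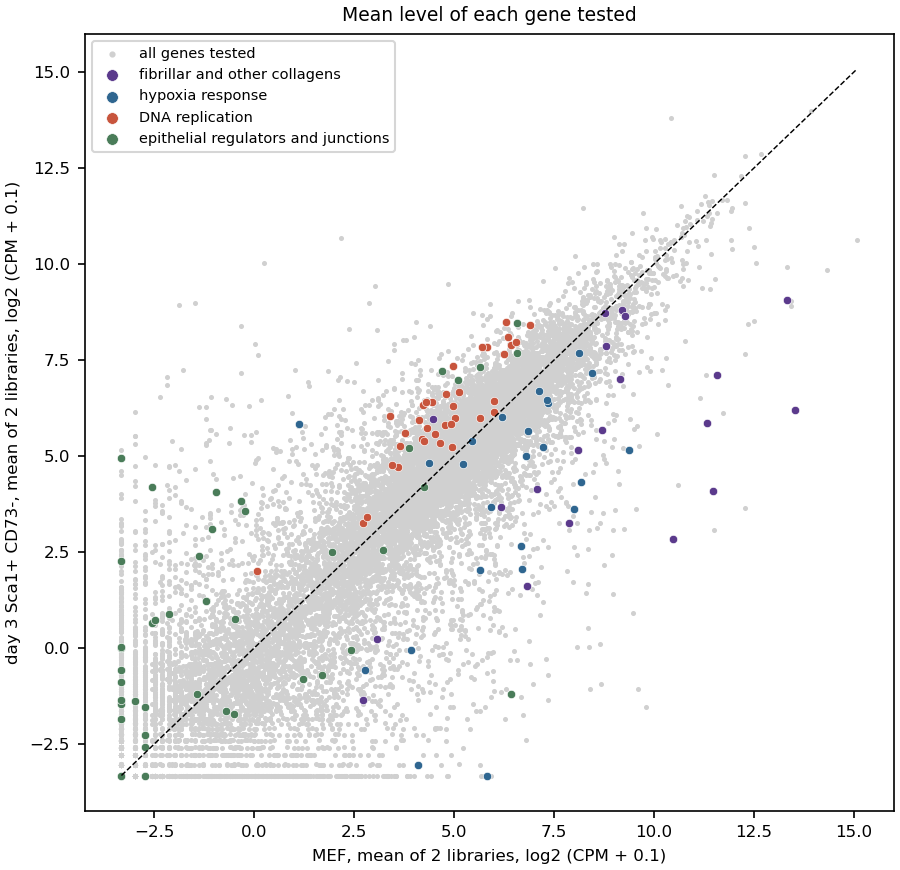
Mean level of each of the 16240 genes tested in MEF (horizontal) and in the day 3 Sca1+ CD73- cells (vertical), as log2 (CPM + 0.1), with members of 4 gene lists in colour and the line of equal level dashed. Collagens and hypoxia genes lie mostly below the line, DNA replication genes above it, and epithelial genes rise from the left edge, where MEF have few or no reads.

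The extracellular matrix programme of the fibroblast was lower in most members. Of 16 fibroblast identity genes tested, 13 were lower and 0 higher (median log2 difference -4.54, against -0.0011 over the 15826 tested genes with a count in either group). Postn, the matrix protein periostin, fell from 1329 and 456 CPM to 0.0875 and 0.407 CPM (log2 difference -11.79 ± 1.03 SE, adjusted p = 1.37e-05, -10.81 without MEF replicate 1 and -12.45 without MEF replicate 2 and -11.10 without Sca1+ CD73- replicate 1 and -13.23 without Sca1+ CD73- replicate 2). The members that were not called were Vim, an intermediate filament protein, at 6322 and 6833 CPM in MEF and 7706 and 7386 CPM in the sorted cells, Dcn, at 17.5 and 11.7 CPM in MEF and 8.48 and 9.28 CPM after the sort, and Col6a1, at 972 and 269 CPM in MEF and 469.6 and 339 CPM after the sort. In the MEF libraries the lowest of these markers were Fap, at 5.52 and 3.77 CPM, Dcn, which encodes decorin, and Pdgfra, at 34.6 and 11.4 CPM. Vim was abundant in both groups.

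Of 20 collagens, 13 were lower and 1 higher (median -2.99). Col1a1, the main chain of type I collagen, stood at 20038 and 3655 CPM in MEF and 91.0 and 57.1 CPM in the Sca1+ CD73- cells (log2 difference -7.32 ± 0.77 SE, adjusted p = 4.37e-05, -5.61 without MEF replicate 1 and -8.15 without MEF replicate 2). Its partner Col1a2 stood at 15707 and 4958 CPM in MEF and 595 and 481 CPM after the sort (log2 difference -4.26 ± 0.52 SE, adjusted p = 0.000119, -3.19 without MEF replicate 1 and -4.94 without MEF replicate 2). Col3a1 went from 4415 and 1259 CPM to 17.9 and 15.7 CPM and Col12a1 from 2315 and 535 CPM to 7.96 and 6.16 CPM. The MEF libraries differed widely here: of 61 matrix genes with at least 5 CPM in both, 55 were higher in replicate 1, with a median ratio of 2.86. For the 4 collagens just named, both MEF libraries stood far above both sorted ones. The basement membrane collagens Col4a1 and Col4a2 were not called, Col4a1 at 1058 and 127 CPM in MEF and 525 and 376 CPM in the sorted cells and Col4a2 at 786 and 94.8 CPM in MEF and 493 and 361 CPM after the sort (adjusted p = 0.708 and 0.99). Col15a1, also of basement membranes, was the collagen that rose (log2 difference 1.48 ± 0.38 SE, adjusted p = 0.0128, 2.31 without MEF replicate 1). It was not called without Sca1+ CD73- replicate 1, and 3 collagens were higher without MEF replicate 1 and 0 without Sca1+ CD73- replicate 1.

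The enzymes that modify and crosslink collagen fell with it: 18 of 20 were lower and 0 higher (median -2.26). Lox, which crosslinks collagen and elastin, fell from 4849.9 and 5135 CPM to 12.9 and 12.2 CPM (log2 difference -8.64 ± 0.75 SE, adjusted p = 1.28e-05), and its relative Loxl1 from 855 and 355 CPM to 8.57 and 8.51 CPM. P4ha1 and P4ha2, the catalytic subunits of prolyl 4-hydroxylase, fell (log2 differences -4.21 and -4.41, the latter -3.81 without MEF replicate 1). In matrix glycoproteins, 18 of 24 were lower and 2 higher (median -3.57), the higher ones being Fmod (fibromodulin, log2 difference 2.97 ± 0.33 SE, adjusted p = 6.19e-05) and Nid2 (nidogen-2, log2 difference 1.79 ± 0.52 SE, adjusted p = 0.0233, 3.35 without MEF replicate 1 and 1.01 without MEF replicate 2). Nid2 was not called without Sca1+ CD73- replicate 1, and 4 members were higher without MEF replicate 1. Fn1, fibronectin, fell from 8861 and 1592 CPM to 396 and 301 CPM (log2 difference -3.91 ± 0.62 SE, adjusted p = 0.000755, -2.18 without MEF replicate 1 and -4.74 without MEF replicate 2). The thrombospondins Thbs1 and Thbs2 also fell (log2 differences -3.41 and -5.45, for Thbs1 -2.73 without MEF replicate 1 and for Thbs2 -4.70 without MEF replicate 1). Mfap5 fell too (log2 difference -3.51). Lgals1, the lectin galectin-1, fell from 3399 and 8270.2 CPM to 319 and 413 CPM (log2 difference -3.99 ± 0.38 SE, adjusted p = 2.36e-05, -3.29 without MEF replicate 2).

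Matrix proteases and their inhibitors were lower in 17 of 20 members and higher in 0 (median -2.76), with 1 higher when MEF replicate 1 was left out. Serpinf1, an antiangiogenic serpin, fell from 753 and 661 CPM to 1.05 and 2.53 CPM (log2 difference -8.62 ± 0.44 SE, adjusted p = 3.63e-07, -9.41 without Sca1+ CD73- replicate 2), and Mmp23 from 113 and 131 CPM to 18.4 and 16.2 CPM. Integrins and laminins went in both directions, with 7 higher and 9 lower of 26 (median -0.52; 13 were higher without MEF replicate 1). The fibronectin receptor chain Itga5 fell from 791 and 241 CPM to 46.2 and 41.2 CPM and the collagen receptor Itga11 from 179 and 25.8 CPM to 0.306 and 0.317 CPM. The laminin receptor Itga7 fell too (log2 difference -6.22, -5.43 without MEF replicate 1). Itgb4, the integrin of epithelial hemidesmosomes, rose from 1.70 and 0.140 CPM to 299 and 189 CPM (log2 difference 7.70 ± 0.51 SE, adjusted p = 1.95e-06, 10.72 without MEF replicate 1 and 7.09 without MEF replicate 2). Itga4 rose by 3.79 on the log2 scale.

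The regulators of the mesenchymal state were lower in part. Of 38 mesenchymal and patterning factors, 20 were lower and 4 higher (median -1.47). Without Sca1+ CD73- replicate 1 or 2, 13 and 10 were lower and 2 higher in each case. Snai1, a repressor of E-cadherin, fell from 68.5 and 48.0 CPM to 5.34 and 2.35 CPM (log2 difference -3.92 ± 0.46 SE, adjusted p = 8.99e-05, -4.66 without Sca1+ CD73- replicate 1). Osr1 and Prrx2, factors of limb and connective tissue, fell (log2 differences -6.44 and -2.39, the first -5.83 without MEF replicate 1). Tbx2, which represses cell cycle inhibitors, rose from 3.67 and 0.419 CPM to 63.5 and 47.0 CPM (log2 difference 4.52 ± 0.54 SE, adjusted p = 0.000104, 7.04 without MEF replicate 1 and 3.84 without MEF replicate 2), Foxd1, a factor of stromal cells, from 10.8 and 9.63 CPM to 43.7 and 35.8 CPM, and Meox2 by 1.43, a call lost without either Sca1+ CD73- library.

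Among AP-1, Runx, Cebp and Tead factors, 11 of 25 were lower and 3 higher (median -1.28). Without MEF replicate 1, 6 were lower and 5 higher, and without Sca1+ CD73- replicate 2, 5 were lower. Fosl2, an AP-1 subunit of fibroblasts, fell from 265 and 172 CPM to 41.9 and 43.9 CPM (log2 difference -2.35 ± 0.23 SE, adjusted p = 2.76e-05), and Ier3 and Cebpb (log2 differences -2.57 and -2.72). Fos rose from 16.2 and 8.24 CPM to 71.4 and 60.5 CPM (log2 difference 2.40 ± 0.38 SE, adjusted p = 0.000719, 3.02 without MEF replicate 1), Cebpd by 1.54 and Tead4, a partner of YAP, from 7.28 and 0.558 CPM to 34.0 and 30.5 CPM.

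TGF-beta and YAP target genes were lower in 14 of 26 members and higher in 1 (median -1.03; 7 were higher without MEF replicate 1 and 2 without MEF replicate 2). Ccn2, connective tissue growth factor, fell from 992 and 949 CPM to 159 and 215 CPM (log2 difference -2.37 ± 0.20 SE, adjusted p = 1.07e-05) and Tgfbi (log2 difference -2.87, -2.21 without MEF replicate 1). The member that rose was Edn1, endothelin-1, from 7.59 and 9.07 CPM to 48.4 and 50.2 CPM (log2 difference 2.57 ± 0.42 SE, adjusted p = 0.000935). TEAD letters (GGAATG, both strands) were found in promoter windows of 3 of the 10 lower members that have one (30.0%, against 16.6% of all genes). Yap1 itself stood at 245 and 174 CPM in MEF and 215 and 211 CPM in the sorted cells and was not called. Contractile and smooth muscle genes were lower in 17 of 24 members and higher in 2 (median -1.44), with 8 and 9 lower, and 1 higher each, when Sca1+ CD73- replicate 1 or 2 was left out. Cnn1, calponin, fell from 466 and 529.8 CPM to 4.59 and 5.97 CPM (log2 difference -6.56 ± 0.42 SE, adjusted p = 1.52e-06), and Tpm2, a tropomyosin, from 736 and 724 CPM to 50.9 and 54.0 CPM. Des, which encodes desmin, fell too (log2 difference -6.72). Actg2, an enteric smooth muscle actin, and Cnn3 rose by 1.23 and 0.65, the second not called without either Sca1+ CD73- library.

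Id genes, which encode inhibitors of basic helix-loop-helix factors and are targets of BMP signals, rose together. Id1 went from 20.5 and 21.4 CPM to 334 and 337 CPM (log2 difference 4.00 ± 0.22 SE, adjusted p = 6.56e-07), Id2 from 9.45 and 16.9 CPM to 219.6 and 299 CPM (log2 difference 4.33 ± 0.31 SE, adjusted p = 2.89e-06) and Id4 from 4.03 and 4.19 CPM to 43.8 and 43.0 CPM (log2 difference 3.40 ± 0.23 SE, adjusted p = 2.11e-06). Id3, already abundant in MEF, went from 133 and 175 CPM to 336 and 362 CPM (log2 difference 1.19 ± 0.25 SE, adjusted p = 0.00387). Of the 23 Id and BMP genes, 6 were higher and 7 lower (median -0.12; 4 lower without Sca1+ CD73- replicate 2). Those that fell included Bmper, which encodes a secreted BMP-binding protein, from 65.1 and 60.9 CPM to 1.84 and 0.996 CPM (log2 difference -5.47 ± 0.60 SE, adjusted p = 5.38e-05), and the ligand gene Bmp4 from 49.9 and 32.1 CPM to 5.42 and 5.39 CPM (log2 difference -2.93 ± 0.54 SE, adjusted p = 0.00185). The receptor gene Bmpr1a stood at 174 and 231 CPM in MEF and 231 and 261 CPM after the sort and was not called. Smad letters (GGCGCC, its own reverse complement) were found in promoter windows of 3 of the 4 higher members that have one (75.0%, against 13.4% of all genes).

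Many epithelial genes were higher than in MEF, while others stayed near 0. Of 42 epithelial regulators and junction genes tested, 22 were higher and 2 lower (median 2.26). A fit of only the 4 libraries called 9 higher and 1 lower. Epcam, described above, and Pkp1 were not called in that fit. For Cdh1, with 1 count in MEF, the ratio was 485 (95% counting interval 86.7 to 19160.0). Ovol2, a repressor of mesenchymal factors, had no count in MEF and 4.90 and 4.53 CPM in the sorted cells. Keratin 7 (Krt7) fell from 98.6 and 74.3 CPM to 0.394 and 0.272 CPM (log2 difference -7.99 ± 0.77 SE, adjusted p = 2.38e-05). The desmosome gene Pkp1 fell too (log2 difference -2.62, -1.80 without MEF replicate 1). Several epithelial genes stayed low: Cldn7 stood at 0.103 and 0 CPM in MEF and 0 and 0.136 CPM in the sorted cells, Ocln at 0.103 and 1.12 CPM in MEF and 0 and 0.407 CPM after the sort, and Rab25 at 0.103 and 0 CPM in MEF and 0 and 0 CPM after the sort, none of them called. In the list of cadherins and guidance genes, 3 were higher and 11 lower of 23 (median -1.41; 7 and 6 lower without Sca1+ CD73- replicate 1 or 2). Cdh3, P-cadherin, fell from 91.3 and 30.7 CPM to 0.219 and 0.407 CPM, the guidance factor Sema3a from 136 and 100.4 CPM to 0.131 and 1.18 CPM and Pcdh19 (log2 difference -1.41). Cdh5, the cadherin of endothelium, rose from 0.206 and 0 CPM to 3.76 and 3.17 CPM, and Cdh13 by 1.33 (2.00 without MEF replicate 1), which was not called without either Sca1+ CD73- library.

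**Figure D3:**
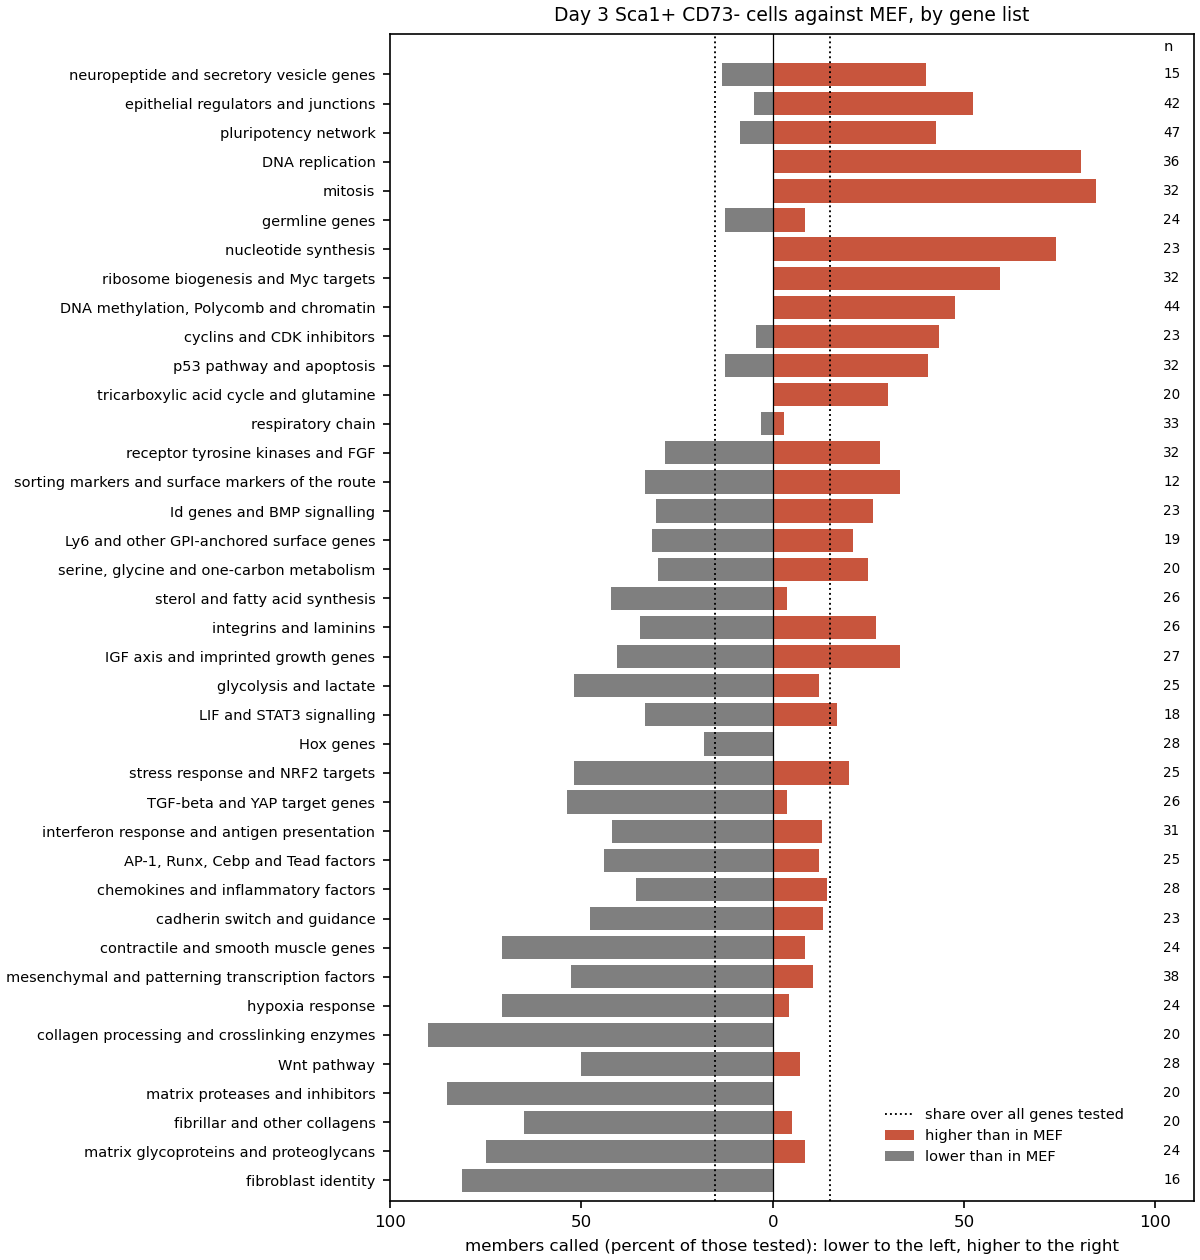
Members of each gene list with at least 12 genes tested that were called higher (right, red) or lower (left, grey) in the day 3 Sca1+ CD73- cells than in MEF, as percent of those tested. Lists are ordered by median log2 difference, n is the number tested, and dotted lines mark the shares over all genes tested, 15.0% in each direction.

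Pluripotency genes had moved in a fraction of the network. Of 47 tested, 20 were higher and 4 lower (median 1.85). This median leaves out 6 members with no count in MEF or the Sca1+ CD73- cells. Fgf4, a growth factor gene that Oct4 and Sox2 bind together, had 0.0516 and 0.140 CPM in MEF and 93.1 and 92.9 CPM in the Sca1+ CD73- cells, a ratio of 1234 (95% counting interval 341 to 10191) against 2 counts. Slc7a3, an arginine transporter of pluripotent cells, rose from 44.9 and 44.0 CPM to 233 and 240.4 CPM (log2 difference 2.41 ± 0.16 SE, adjusted p = 1.77e-06). Klf2, a factor of naive pluripotency that MEF also express, fell from 48.0 and 42.6 CPM to 2.84 and 3.44 CPM (log2 difference -3.85 ± 0.27 SE, adjusted p = 2.57e-06). Spp1, osteopontin, fell from 2757 and 3075 CPM to 4.85 and 11.7 CPM. Among the 7 markers of pluripotent cells, Nanog reached 1.79 and 2.40 CPM (log2 difference 1.83 ± 0.52 SE, adjusted p = 0.0201, 2.89 without MEF replicate 1), Esrrb 0.612 and 0.679 CPM and Utf1 1.09 and 0.317 CPM, the 3 that were higher (1 without Sca1+ CD73- replicate 2). Nanog was not called without MEF replicate 2 or Sca1+ CD73- replicate 2, and Esrrb not without MEF replicate 1 or either Sca1+ CD73- library. The fit of only the 4 libraries called 0 of these markers higher, with Nanog and Esrrb tested there. Dppa3 had no count in either group, and Zfp42 stood at 0.361 and 0.279 CPM in MEF and 0.175 and 0.453 CPM after the sort and was not called.

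Spry4, which restrains the ERK pathway, rose from 13.3 and 12.7 CPM to 127 and 129 CPM (log2 difference 3.30 ± 0.17 SE, adjusted p = 3.76e-07), and Dusp6, an ERK phosphatase, from 32.5 and 25.4 CPM to 209 and 219 CPM (log2 difference 2.88 ± 0.22 SE, adjusted p = 4.62e-06). The receptors of PDGF, on which fibroblasts depend for growth, fell, Pdgfra from 34.6 and 11.4 CPM to 0.262 and 0 CPM and Pdgfrb from 348 and 120.5 CPM to 8.61 and 8.15 CPM, as did the ephrin receptor Ephb2 (log2 difference -4.30 ± 0.54 SE, adjusted p = 0.00014, -2.98 without MEF replicate 1 and -5.04 without MEF replicate 2). The list of receptor tyrosine kinases and FGF genes held 9 higher and 9 lower members of 32 (median 0.20; 15 higher without MEF replicate 1). LIF and STAT3 genes were lower in 6 and higher in 3 of 18 (median -0.78). The receptor chains Osmr and Il6st fell from 174 and 76.1 CPM to 9.66 and 12.8 CPM and from 651 and 293 CPM to 137 and 111 CPM, and Bcl3 (log2 difference -2.42). Pim3, a survival kinase, rose by 1.43. Socs2 and Cish, feedback inhibitors of cytokine receptors, rose by 0.77 and 1.48, the latter by 2.19 without MEF replicate 1. Socs2 was not called without Sca1+ CD73- replicate 2, and Cish not without MEF replicate 2 or Sca1+ CD73- replicate 1.

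Of 24 germline genes tested, 2 were higher and 3 lower (median 1.19; 4 higher without MEF replicate 2, and 1 and 0 lower without Sca1+ CD73- replicate 1 or 2). The median leaves out 4 members with no count in MEF or the Sca1+ CD73- cells. Rec8, a meiotic cohesin, had 0.155 and 0 CPM in MEF and 7.17 and 5.57 CPM in the sorted cells, beside Dmrtc2 above. Ddx4 and Stk31 had no count in the sorted cells and under 2 CPM in either MEF library, and Prdm1, a factor of germ cell specification, fell from 0.774 and 2.93 CPM to 0.0437 and 0 CPM. None of these 3 calls held without Sca1+ CD73- replicate 2, and those of Ddx4 and Stk31 also not without replicate 1.

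Most genes of the dividing cell rose in the 12-library fit. A fit of only the 4 libraries called fewer of them: 17 replication, 4 nucleotide synthesis and 10 mitosis genes were higher. For DNA replication, 29 of 36 were higher and 0 lower (median 1.41). Mcm7, a subunit of the replicative helicase, rose from 86.2 and 71.6 CPM to 399 and 319 CPM (log2 difference 2.18 ± 0.18 SE, adjusted p = 1.03e-05), Mcm5, another, from 77.1 and 85.6 CPM to 290.1 and 259.8 CPM (log2 difference 1.76 ± 0.16 SE, adjusted p = 1.88e-05), and Dtl, which marks the licensing factor Cdt1 for destruction, from 20.9 and 22.5 CPM to 87.5 and 81.9 CPM (log2 difference 1.97 ± 0.17 SE, adjusted p = 1.46e-05). Exons of Mcm7 overlap those of Ap4m1 and Cops6 on the other strand. Nucleotide synthesis genes were higher in 17 of 23 and lower in 0 (median 0.96; 1 lower without MEF replicate 2). Rrm1 and Rrm2, which form ribonucleotide reductase, went from 187 and 178 CPM to 960.1 and 933 CPM and from 109 and 126 CPM to 515 and 551 CPM, and Umps, of pyrimidine synthesis, rose by 1.74. Mitosis genes were higher in 27 of 32 and lower in 0 (median 1.30; 1 lower without MEF replicate 2). Cdc20, the activator of the anaphase-promoting complex, went from 94.1 and 77.9 CPM to 418 and 381 CPM (log2 difference 2.21 ± 0.19 SE, adjusted p = 1.04e-05), the kinase gene Aurkb from 36.0 and 27.5 CPM to 107 and 111 CPM, and Ube2c by 1.48. Mki67, a widely used marker of dividing cells, stood at 90.6 and 10.9 CPM in MEF and 55.3 and 45.1 CPM in the sorted cells and was not called.

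Promoter sequences of members are shown because cell cycle genes share known short elements. The windows are RefSeq's on GRCm38.p6, from 250 bases before to 50 after a gene's start, and 27025 genes have one. The letters of E2F sites were searched on both strands as TTTCCCGC, TTTGGCGC, TTTCGCGC and TTTGCCGC. They were found in 13 of 25 called replication genes with a window (52.0%), against 2.60% of all genes with a window. The letters of the cell cycle homology region, TTTGAA or TTTAAA, were found in 18 of 23 called mitosis genes with a window (78.3%, against 30.6%) and CCAAT in 17 (73.9%, against 41.1%). A match of letters is a description of the sequence and not a site in use. The lists group genes by known role, and only members called in the direction named were searched. In every such count of this report, a share above that of all genes can therefore follow from the choice of list. A link of these letters to the changes was not tested. The bases before the start of Mcm5 (chr8:75109259-75109508, + strand) and Dtl (chr1:191575545-191575794, - strand) follow with E2F letters in capitals, and those of Cdc20 (chr4:118437344-118437593, - strand) with the homology region in capitals, each 5′ to 3′ along the gene.
Mcm5: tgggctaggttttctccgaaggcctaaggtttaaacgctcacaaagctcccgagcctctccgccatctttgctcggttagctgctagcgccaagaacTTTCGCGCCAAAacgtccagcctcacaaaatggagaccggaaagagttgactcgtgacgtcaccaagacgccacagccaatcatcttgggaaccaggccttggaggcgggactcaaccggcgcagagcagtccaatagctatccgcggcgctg
Dtl: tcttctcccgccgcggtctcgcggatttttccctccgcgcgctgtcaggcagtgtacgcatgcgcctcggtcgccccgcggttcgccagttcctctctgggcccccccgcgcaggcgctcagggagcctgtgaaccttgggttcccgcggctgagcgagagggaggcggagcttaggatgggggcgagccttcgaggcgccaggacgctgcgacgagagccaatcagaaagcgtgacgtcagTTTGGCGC
Cdc20: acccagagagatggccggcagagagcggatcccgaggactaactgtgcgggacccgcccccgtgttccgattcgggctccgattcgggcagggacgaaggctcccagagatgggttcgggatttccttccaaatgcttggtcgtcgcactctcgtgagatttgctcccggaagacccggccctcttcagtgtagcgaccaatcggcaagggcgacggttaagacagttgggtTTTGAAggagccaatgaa

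Cyclins and CDK inhibitors were higher in 10 and lower in 1 of 23 (median 0.69; 2 lower without MEF replicate 2). Ccnd1, cyclin D1, rose from 189 and 146 CPM to 517 and 455 CPM (log2 difference 1.54 ± 0.18 SE, adjusted p = 0.000109), and Rb1, the retinoblastoma protein that D-type cyclins act on, from 18.8 and 14.9 CPM to 103 and 101 CPM (log2 difference 2.59 ± 0.21 SE, adjusted p = 7.49e-06). Exons of Ccnd1 and of Rb1 overlap genes on the opposite strand. The inhibitor gene that fell was Cdkn2b (p15), from 179 and 220.4 CPM to 50.6 and 56.1 CPM (log2 difference -1.90 ± 0.30 SE, adjusted p = 0.00073). Its neighbour Cdkn2a, known as a barrier to reprogramming, stood at 173 and 185 CPM in MEF and 199 and 214 CPM in the sorted cells, and Cdkn1a (p21) at 499 and 495 CPM in MEF and 458 and 447 CPM after the sort, neither called. In the p53 and apoptosis list, 13 were higher and 4 lower of 32 (median 0.38). With only the 4 libraries fitted, 3 were higher and 1 lower. Without Sca1+ CD73- replicate 1, 6 were higher, and without replicate 2, 7 higher and 2 lower. Perp, a p53 target that also builds desmosomes, rose from 4.28 and 10.1 CPM to 448 and 571 CPM (log2 difference 6.22 ± 0.38 SE, adjusted p = 1.14e-06, 6.82 without MEF replicate 2), the survival gene Bcl2 from 8.31 and 5.03 CPM to 38.5 and 31.7 CPM, and Bik, which opposes it, had no count in MEF and 2.27 and 3.30 CPM. Casp8, the initiator caspase of death receptors, fell (log2 difference -1.45), Plk2, a p53 target, (log2 difference -1.30), and Bak1 (log2 difference -0.76), the last not called without Sca1+ CD73- replicate 2.

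Ribosome biogenesis genes, many of them Myc targets, were higher in 19 of 32 members and lower in 0 (median 0.90), with 10 and 11 higher when Sca1+ CD73- replicate 1 or 2 was left out. With only the 4 libraries fitted, 4 were higher and 0 lower. Dkc1, which modifies ribosomal RNA, rose from 73.6 and 62.0 CPM to 210.0 and 276 CPM (log2 difference 1.84 ± 0.19 SE, adjusted p = 3.52e-05), and its partner Gar1 and fibrillarin (Fbl) by 1.85 and 1.64. The E-box CACGTG, to which Myc binds, was in windows of 2 of the 16 called members that have one (12.5%, against 8.09% of all genes). For DNA methylation, Polycomb and chromatin genes, 21 of 44 were higher and 0 lower (median 0.87). The fit of only the 4 libraries called 10 of them higher. Without MEF replicate 1, 33 were higher, and without MEF replicate 2, 3 were lower. Cbx7, a chromodomain protein of Polycomb complex PRC1, rose from 1.70 and 2.37 CPM to 29.1 and 26.7 CPM (log2 difference 3.83 ± 0.24 SE, adjusted p = 1.2e-06), Phf19, a partner of PRC2, from 6.25 and 3.91 CPM to 34.7 and 26.5 CPM, and the remodeller Chd7 from 3.10 and 0.558 CPM to 38.0 and 34.8 CPM (log2 difference 4.10 ± 0.43 SE, adjusted p = 4.4e-05, 6.03 without MEF replicate 1 and 3.48 without MEF replicate 2). The demethylation gene Tet1 stood at 3.51 and 3.07 CPM in MEF and 2.41 and 2.76 CPM after the sort and Tet2 at 9.40 and 2.51 CPM in MEF and 7.70 and 3.76 CPM after the sort, neither called.

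Most genes induced by low oxygen fell. Of 24 tested, 17 were lower and 1 higher (median -1.89; 3 higher without MEF replicate 1). P4ha1, shared with the collagen enzymes, went from 744 and 576 CPM to 36.4 and 34.9 CPM (log2 difference -4.21 ± 0.25 SE, adjusted p = 1.02e-06), P4ha2 from 343 and 172 CPM to 11.9 and 12.4 CPM, and Bnip3, a mitophagy receptor, from 242 and 341 CPM to 17.7 and 22.0 CPM (log2 difference -3.88 ± 0.23 SE, adjusted p = 1.08e-06). Both MEF libraries stood above both sorted libraries for each. The member that rose was Epas1, which encodes the hypoxia-inducible factor HIF-2 alpha, from 3.97 and 0.140 CPM to 61.3 and 52.3 CPM (log2 difference 4.54 ± 0.65 SE, adjusted p = 0.000361, 8.62 without MEF replicate 1 and 3.76 without MEF replicate 2). The core letters of the hypoxia response element, NACGTG, were found in windows of 10 of the 13 lower members that have one (76.9%, against 21.7% of all genes). As CACGTG these letters overlap the E-box. The bases before the start of P4ha1 (chr10:59323046-59323295, + strand) and Bnip3 (chr7:138909507-138909756, - strand) show them in capitals, on either strand. Oxygen and cell density of the cultures are not given in the labels.
P4ha1: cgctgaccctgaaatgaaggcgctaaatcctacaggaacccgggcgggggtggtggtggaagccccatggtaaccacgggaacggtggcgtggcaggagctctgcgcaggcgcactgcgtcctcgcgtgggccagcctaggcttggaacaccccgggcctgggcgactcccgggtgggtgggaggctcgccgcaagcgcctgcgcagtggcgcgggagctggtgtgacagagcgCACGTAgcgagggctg
Bnip3: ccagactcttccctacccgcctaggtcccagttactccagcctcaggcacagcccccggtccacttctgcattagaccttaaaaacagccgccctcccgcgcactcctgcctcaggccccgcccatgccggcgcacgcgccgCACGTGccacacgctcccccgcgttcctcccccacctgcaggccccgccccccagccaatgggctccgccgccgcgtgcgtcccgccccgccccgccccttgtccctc

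Glycolysis and lactate genes were lower in 13 of 25 and higher in 3 (median -0.72; 5 higher without MEF replicate 1). Slc16a3, the lactate exporter MCT4, fell from 374 and 289 CPM to 1.01 and 0.815 CPM (log2 difference -8.50 ± 0.37 SE, adjusted p = 9.35e-08), Pdk1, which keeps pyruvate out of the mitochondrion, from 127 and 169.8 CPM to 38.0 and 37.5 CPM, and Aldoa (log2 difference -1.82). Slc16a1, the transporter MCT1, rose from 52.7 and 68.8 CPM to 125 and 145 CPM (log2 difference 1.15 ± 0.18 SE, adjusted p = 0.000762), the glucose transporter Slc2a3 from 18.2 and 22.3 CPM to 125 and 112 CPM (log2 difference 2.55 ± 0.21 SE, adjusted p = 9.2e-06), and hexokinase 2 (Hk2) by 1.35. Tricarboxylic acid cycle genes were higher in 6 of 20 and lower in 0 (median 0.34; 2 lower without MEF replicate 1). Pcx, pyruvate carboxylase, rose from 13.5 and 4.89 CPM to 102 and 91.8 CPM (log2 difference 3.33 ± 0.36 SE, adjusted p = 5.16e-05, 4.32 without MEF replicate 1), and Idh2 and Pdha1 by 1.24 and 1.03.

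The respiratory chain gave no stable answer. In the 12-library fit 1 of 33 members was higher (Ndufs1, log2 difference 0.62 ± 0.16 SE, adjusted p = 0.0112, not called without either Sca1+ CD73- library) and 1 lower (Cox4i2, log2 difference -2.77 ± 0.55 SE, adjusted p = 0.00304), with a median of 0.20. Without MEF replicate 2, 19 were higher, and with the share of reads outside genes as a covariate, 16. Without MEF replicate 1, 2 were higher and 8 lower. The summed level of the list was 5975 CPM in MEF replicate 1 and 10004 CPM in replicate 2, and 8783 and 9646 CPM in the sorted cells, so that MEF replicate 1 lay below and replicate 2 above both.

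In the list of stress and NRF2 genes 13 of 25 were lower and 5 higher (median -0.87). Trib3, a pseudokinase induced by the factor ATF4, stood at 137 and 137 CPM in MEF and 3.67 and 2.76 CPM in the Sca1+ CD73- cells (log2 difference -5.41 ± 0.33 SE, adjusted p = 1.16e-06). Chac1, which degrades glutathione, stood at 63.5 and 55.7 CPM in MEF and 3.10 and 1.77 CPM after the sort (log2 difference -4.61 ± 0.35 SE, adjusted p = 4.78e-06), and Ddit3, the factor CHOP, at 42.9 and 39.0 CPM in MEF and 3.45 and 2.85 CPM after the sort (log2 difference -3.70 ± 0.33 SE, adjusted p = 1.43e-05). Among the members that were higher, beside Gsta4 above, Mt2, a metallothionein, rose from 15.8 and 17.6 CPM to 50.8 and 69.9 CPM (log2 difference 1.86 ± 0.19 SE, adjusted p = 3.82e-05) and Gclm, of glutathione synthesis, from 47.1 and 34.2 CPM to 103 and 102 CPM (log2 difference 1.33 ± 0.19 SE, adjusted p = 0.000341). The ATF4 letters TGATGNAA were found in windows of 5 of the 12 lower members that have one (41.7%, against 4.51% of all genes). Chac1 (chr2:119350992-119351241, + strand) carries them in capitals, on either strand.
Chac1: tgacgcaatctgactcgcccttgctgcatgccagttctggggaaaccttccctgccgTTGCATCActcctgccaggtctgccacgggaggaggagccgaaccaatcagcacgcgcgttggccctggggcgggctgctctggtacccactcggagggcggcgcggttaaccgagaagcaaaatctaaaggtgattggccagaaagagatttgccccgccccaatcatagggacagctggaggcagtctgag

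**Figure D4:**
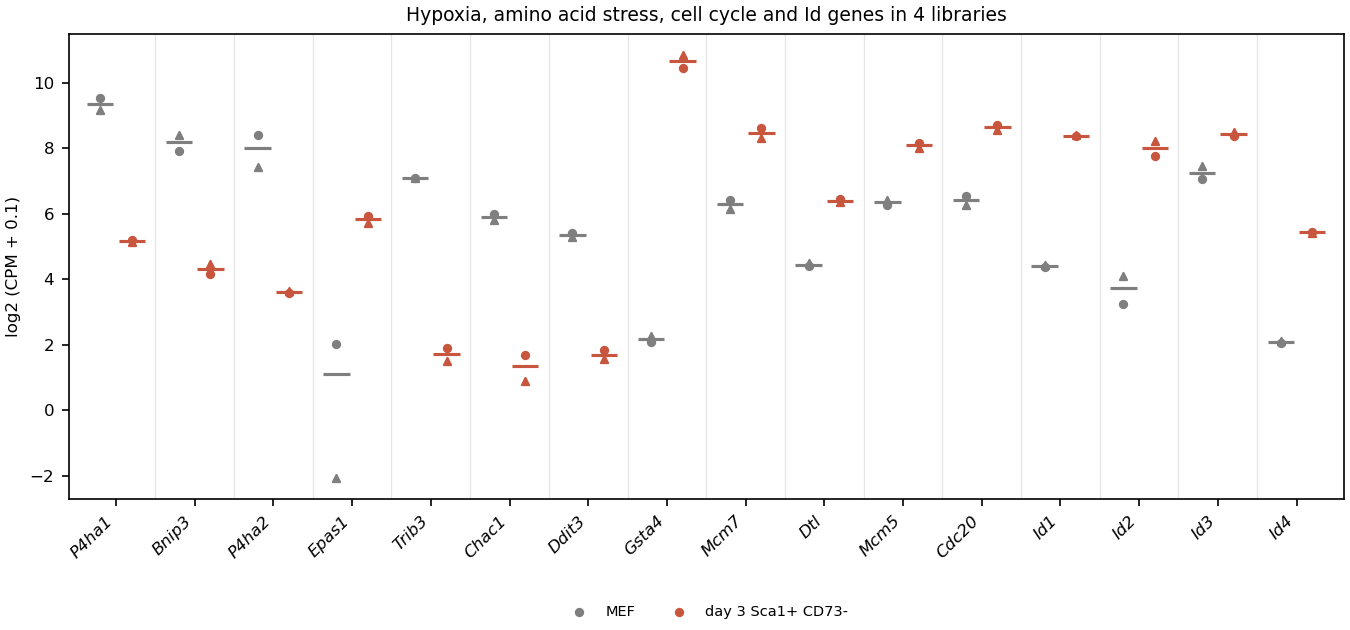
Levels in the 2 MEF libraries (grey) and the 2 libraries of day 3 Sca1+ CD73- cells (red), as log2 (CPM + 0.1), with circles for replicate 1, triangles for replicate 2 and bars at the log2 of the group mean CPM plus 0.1. The hypoxia genes P4ha1, Bnip3 and P4ha2 and the stress genes Trib3, Chac1 and Ddit3 lie lower in the sorted cells, and the cell cycle genes, the 4 Id genes, Epas1 and Gsta4 higher.

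Serine and one-carbon genes went in both directions. Of 20 tested, 5 were higher and 6 lower (median -0.24). Psph, of serine synthesis, fell from 77.2 and 141 CPM to 22.0 and 24.1 CPM, the mitochondrial folate enzyme Mthfd2 from 183 and 175 CPM to 44.3 and 49.2 CPM (log2 difference -1.94 ± 0.18 SE, adjusted p = 2.31e-05) and the glycine transporter Slc6a9 (log2 difference -5.01, -5.81 without Sca1+ CD73- replicate 1). Shmt1, the cytosolic serine hydroxymethyltransferase, rose from 14.4 and 14.9 CPM to 102 and 106 CPM (log2 difference 2.82 ± 0.17 SE, adjusted p = 1.2e-06), Mtr, methionine synthase, from 28.0 and 15.8 CPM to 116 and 83.0 CPM, and Cth, of cysteine synthesis, from 57.6 and 77.6 CPM to 282 and 338 CPM. Sterol and fatty acid genes were lower in 11 of 26 and higher in 1 (median -0.39; 7 lower without either Sca1+ CD73- library, and 5 higher without MEF replicate 1). Cyp51, Sc5d and Nsdhl, of late cholesterol synthesis, fell (log2 differences -1.52, -2.03 and -1.47). Abca1, which exports cholesterol, rose from 26.1 and 9.35 CPM to 165 and 139 CPM (log2 difference 3.07 ± 0.38 SE, adjusted p = 0.000131, 4.04 without MEF replicate 1 and 2.47 without MEF replicate 2).

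Interferon response and antigen presentation genes were lower in 13 of 31 and higher in 4 (median -1.12; 8 lower without Sca1+ CD73- replicate 2). H2-K1, an MHC class I heavy chain, fell from 113 and 109 CPM to 23.0 and 22.2 CPM (log2 difference -2.29 ± 0.19 SE, adjusted p = 8.42e-06), Irf9, of the interferon receptor's transcription complex, from 25.4 and 15.6 CPM to 3.45 and 4.12 CPM, and Ifi27 (log2 difference -3.02). Bst2, the virus-tethering protein tetherin, rose from 18.7 and 30.4 CPM to 165 and 213 CPM (log2 difference 2.96 ± 0.29 SE, adjusted p = 2.53e-05), Ifitm1 by 2.03 and the RNA sensor gene Ddx58 by 1.61 (2.41 without MEF replicate 1). Chemokines and inflammatory factors were lower in 10 of 28 and higher in 4 (median -1.38; 2 higher without Sca1+ CD73- replicate 2). Il1rl1, the receptor of interleukin-33, fell from 679 and 879.7 CPM to 0.306 and 0.453 CPM (log2 difference -10.98 ± 0.42 SE, adjusted p = 3.85e-08), the chemokine Cxcl12 from 334 and 314 CPM to 5.68 and 6.02 CPM (log2 difference -5.79 ± 0.43 SE, adjusted p = 4.06e-06) and the prostaglandin enzyme Ptgs2 from 509 and 352 CPM to 3.54 and 5.20 CPM. Il34, a macrophage growth factor, rose from 5.16 and 3.35 CPM to 69.0 and 64.0 CPM, and Tnfaip3 and Nfkbia, inhibitors of NF-kappaB, by 1.83 and 0.90, the latter not called without Sca1+ CD73- replicate 2.

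Sca1 belongs to the Ly6 family of lipid-anchored proteins, whose members went in both directions. Of 19 Ly6 and other GPI-anchored genes, 4 were higher and 6 lower (median -0.12). Ly6c1, a close relative, stood at 13.9 and 17.6 CPM in MEF and 9.62 and 14.5 CPM in the sorted cells and was not called. Cd109, a TGF-beta co-receptor, rose from 295 and 225 CPM to 1198 and 1179 CPM (log2 difference 2.19 ± 0.23 SE, adjusted p = 4.28e-05). Gpc3, a glypican, and Cd59a, a complement inhibitor, fell from 39.8 and 19.3 CPM to 0.962 and 0.679 CPM and from 12.8 and 18.0 CPM to 2.54 and 2.58 CPM.

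Several secreted Wnt regulators fell. Of 28 Wnt pathway genes, 14 were lower and 2 higher (median -2.49; 5 higher without MEF replicate 1 and 1 without Sca1+ CD73- replicate 2). Rspo2, which amplifies Wnt signals, fell from 163 and 162 CPM to 0.350 and 0.679 CPM (log2 difference -8.29 ± 0.63 SE, adjusted p = 1.02e-05), Dkk2, a Wnt antagonist, from 92.0 and 65.9 CPM to 0.394 and 0.362 CPM, and Dkk3, of the same family, from 392 and 239.8 CPM to 3.45 and 1.72 CPM. Sfrp1 rose by 1.33 (2.02 without MEF replicate 1) and Lef1 from 1.60 and 0.140 CPM to 4.50 and 5.57 CPM, the latter not called without Sca1+ CD73- replicate 2.

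The IGF axis changed in both directions. Of 27 IGF and imprinted growth genes, 9 were higher and 11 lower (median -0.54). Among the binding proteins, which hold IGF in the matrix and the medium, Igfbp3 rose from 35.1 and 21.9 CPM to 703 and 730.5 CPM (log2 difference 4.64 ± 0.27 SE, adjusted p = 8.5e-07). Igfbp2 fell from 169.7 and 102 CPM to 2.01 and 2.99 CPM (log2 difference -5.77 ± 0.34 SE, adjusted p = 8.5e-07), Igfbp4 from 372 and 393 CPM to 10.8 and 6.61 CPM, Igfbp7 from 649 and 468 CPM to 18.0 and 20.8 CPM and Igfbp6 (log2 difference -2.19). Nnat, an imprinted membrane protein gene, rose from 2.37 and 2.51 CPM to 125 and 117 CPM (log2 difference 5.63 ± 0.26 SE, adjusted p = 2.05e-07), beside Igf2 and H19.

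Hox genes hold positional identity. In this list 5 of 28 were lower, a share close to that over all genes, and 0 higher (median -0.81; 1 lower without either Sca1+ CD73- library, and 2 higher without MEF replicate 1). Hoxd13, of the distal limb, stood at 126 and 151 CPM in MEF and 65.5 and 72.6 CPM in the sorted cells (adjusted p = 0.0126), Hoxa11 at 32.8 and 25.4 CPM in MEF and 12.3 and 15.2 CPM after the sort and Hoxc6 at 6.45 and 7.54 CPM in MEF and 0.831 and 0.905 CPM after the sort. Hoxd13 and Hoxc6 were not called without either Sca1+ CD73- library, and Hoxa11 not without replicate 1. Neuropeptide and secretory vesicle genes were higher in 6 and lower in 2 of 15 (median 3.33; 1 lower without MEF replicate 1 or either Sca1+ CD73- library). Penk, proenkephalin, fell from 214 and 114 CPM to 0.131 and 0.453 CPM (log2 difference -9.11 ± 0.73 SE, adjusted p = 7.34e-06, -8.51 without Sca1+ CD73- replicate 1 and -10.23 without Sca1+ CD73- replicate 2), and Cck had no count in the sorted cells against 2.79 and 1.95 CPM in MEF, a call lost without either Sca1+ CD73- library. Sv2b, a synaptic vesicle protein, rose to 4.24 and 3.58 CPM from 1 count in MEF, beside Pcsk1n and Trh.

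Markers of other cell types were read gene by gene, because single members moved without the rest. Laptm5, a lysosomal protein of leukocytes, went from 0.413 and 0.977 CPM to 364 and 309 CPM (log2 difference 9.14 ± 0.31 SE, adjusted p = 2.04e-08, 8.43 without MEF replicate 1). It made up most of the summed leukocyte level of 368 and 314 CPM in the sorted cells, against 7.74 and 12.0 CPM in MEF. Of 6 leukocyte markers tested, 1 was higher and 1 lower (2 higher without MEF replicate 1, 2 lower without either MEF library and 0 lower without Sca1+ CD73- replicate 2), Csf1r and Fcer1g had no count in the sorted cells, and Ptprc, which defines leukocytes, did not pass the count filter. Tek, the endothelial receptor of angiopoietins, went from 2.01 and 1.81 CPM to 154 and 148 CPM (log2 difference 6.28 ± 0.26 SE, adjusted p = 8.09e-08). Of 7 endothelial markers 3 were higher and 0 lower, with a summed level of 3.20 and 1.95 CPM in MEF and 161 and 154 CPM in the sorted cells. Tie1 reached 0.787 and 0.453 CPM and was not called without MEF replicate 1, while Pecam1, Cldn5 and Vwf had no count in the sorted cells. The part of other cell types in the results was not tested.

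The remaining marker lists held few members that rose. Tendon and cartilage markers were lower in 5 of 7 and higher in 0, with a summed level of 527 and 211 CPM in MEF and 30.1 and 24.8 CPM in the sorted cells. Scx, the tendon factor scleraxis, fell from 43.3 and 60.0 CPM to 2.67 and 2.72 CPM (log2 difference -4.26 ± 0.55 SE, adjusted p = 0.000175). Adipocyte markers were lower in 2 of 5 and higher in 0 (1 higher without MEF replicate 1), from 78.1 and 192 CPM in sum to 16.1 and 14.8 CPM. Keratinocyte markers were lower in 1 of 3 (Sfn, log2 difference -3.41 ± 0.37 SE, adjusted p = 5.72e-05) and higher in 0. Among 4 skeletal muscle markers Acta1 fell from 70.4 and 83.5 CPM to 3.67 and 4.30 CPM, and Pax7 had no count in MEF and 0.481 and 0.543 CPM. Among 7 neural markers Tubb3 fell from 59.4 and 51.9 CPM to 6.03 and 5.57 CPM, and Elavl4, an RNA-binding protein of neurons, rose from 0.723 and 0 CPM to 10.2 and 10.7 CPM (log2 difference 4.43 ± 0.71 SE, adjusted p = 0.000769, 10.67 without MEF replicate 1 and 3.77 without MEF replicate 2). Lyz2, of macrophages, fell from 3.25 and 7.54 CPM to 0.219 and 0 CPM, a call lost without Sca1+ CD73- replicate 2.

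Set against the Sca1- CD73+ cells of the same day, the Sca1+ CD73- cells differed in few genes: 65 of 16240 (0.400%), 39 higher (0.240%) and 26 lower (0.160%). This contrast shares the Sca1+ CD73- libraries with the comparison to MEF, so values are given side by side and no overlap is read as support. The 2 sort markers differed as the gates select: Ly6a had 84.1 and 80.2 CPM in the Sca1- CD73+ cells (log2 difference 3.20 ± 0.32 SE, adjusted p = 0.00282) and Nt5e 41.5 and 32.9 CPM (log2 difference -3.48 ± 0.36 SE, adjusted p = 0.00282). Of the 39 genes that were higher in the Sca1+ CD73- cells, 27 were below and 9 above MEF. Of the 26 that were lower, 4 were below and 18 above MEF. Between 4 and 6 genes were called when 1 library of these groups was left out, against 700 in a fit of only these groups and 445 with DESeq2. Nr0b1 and Trh were called in all 4 fits that left out a library, Cdkn1c and Nt5e in 3, and Ly6a in 2.

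Several genes that stood below MEF in the Sca1+ CD73- cells were lower still in the Sca1- CD73+ cells in the 12-library fit. Of the genes called in this contrast and named here and in the next paragraph, only Cdkn1c, Nr0b1 and Trh kept the call in most fits with 1 library left out. Adamts5, a protease that cuts aggrecan, had 581 and 476 CPM in MEF, 66.1 and 68.6 CPM in the Sca1+ CD73- cells and 16.1 and 13.3 CPM in the Sca1- CD73+ cells (log2 difference 2.20 ± 0.30 SE, adjusted p = 0.0244). Igfbp7 had 18.0 and 20.8 CPM in the first sorted group against 5.42 and 5.15 CPM in the second (log2 difference 1.87 ± 0.28 SE, adjusted p = 0.0296), Igfbp6 11.1 and 12.1 CPM against 2.08 and 3.85 CPM (log2 difference 1.98 ± 0.34 SE, adjusted p = 0.0415), and Cdkn2b 50.6 and 56.1 CPM against 15.7 and 13.0 CPM (log2 difference 1.89 ± 0.31 SE, adjusted p = 0.0337). Cited2, a transcriptional coactivator, and Aqp1, a water channel, were higher too, Cited2 at 39.8 and 46.0 CPM against 13.5 and 8.94 CPM and Aqp1 at 16.9 and 15.4 CPM against 5.07 and 4.06 CPM. Cdkn1c, the imprinted CDK inhibitor p57, was different: it had 53.8 and 60.7 CPM in MEF, 138 and 147 CPM in the Sca1+ CD73- cells (log2 difference 1.32 ± 0.20 SE, adjusted p = 0.000488) and 30.5 and 39.3 CPM in the Sca1- CD73+ cells (log2 difference 2.03 ± 0.20 SE, adjusted p = 0.00282).

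Most genes that were lower than in the Sca1- CD73+ cells were above MEF in the Sca1+ CD73- cells. Nr0b1, a nuclear receptor of pluripotent cells also called Dax1, had no count in MEF, 2.67 and 2.90 CPM in the Sca1+ CD73- cells and 20.6 and 23.7 CPM in the Sca1- CD73+ cells (log2 difference -2.99 ± 0.22 SE, adjusted p = 0.000561). Trh had 67.9 and 74.9 CPM against 423 and 367 CPM (log2 difference -2.47 ± 0.18 SE, adjusted p = 0.000555), and Trim9, a brain ubiquitin ligase, 4.24 and 3.62 CPM against 37.8 and 35.1 CPM (log2 difference -3.21 ± 0.32 SE, adjusted p = 0.00955). Sox21, a target of Sox2, had 2.10 and 1.13 CPM against 12.4 and 17.7 CPM, Myb 2.14 and 3.80 CPM against 13.9 and 17.2 CPM, and Tbx21, a T-box factor known from T cells, 5.73 and 2.94 CPM against 19.8 and 25.3 CPM. Nptx1, a neuronal pentraxin, was at 0.656 and 0.724 CPM, not called against MEF, and at 6.29 and 6.71 CPM in the Sca1- CD73+ cells. Pou5f1 had 77.1 and 83.0 CPM and Sox2 241 and 230.2 CPM in the Sca1- CD73+ cells, and neither differed at the threshold (adjusted p = 0.716 and 0.5).

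**Figure D5:**
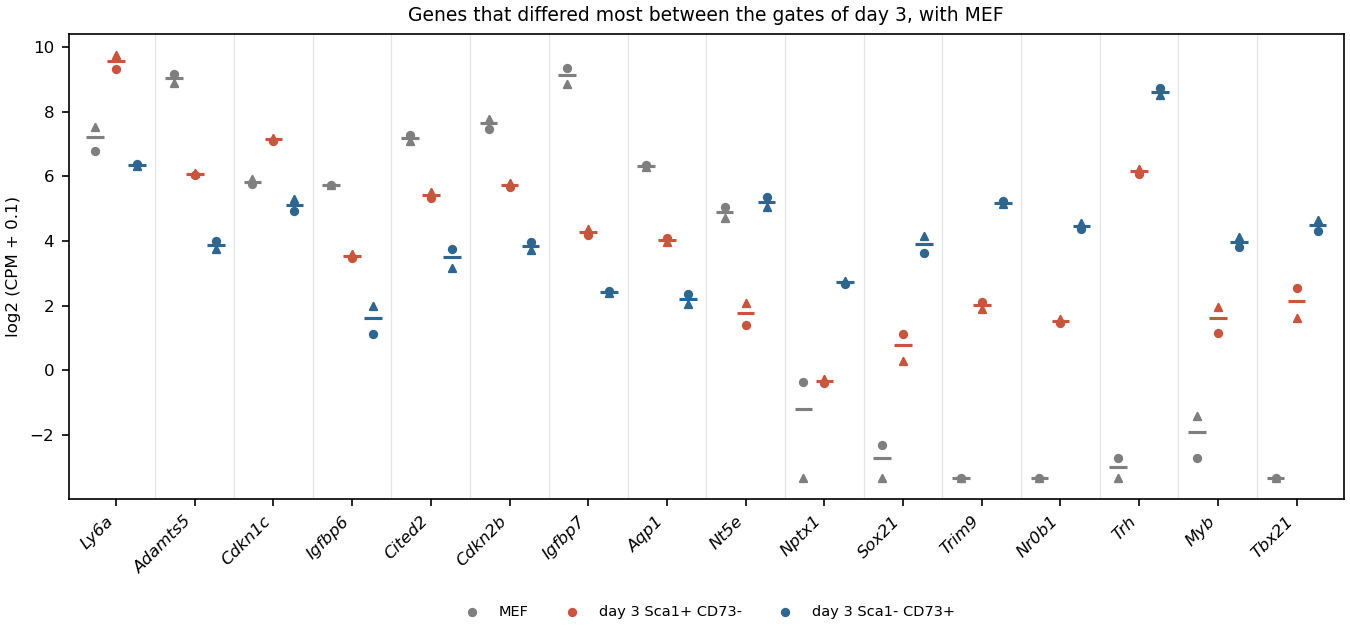
Levels of the 8 genes with the largest rises and the 8 with the largest falls in the day 3 Sca1+ CD73- cells (red) relative to the day 3 Sca1- CD73+ cells (blue), with MEF (grey), as log2 (CPM + 0.1). Circles are replicate 1, triangles replicate 2 and bars the log2 of the group mean CPM plus 0.1. Of the first 8, 6 lie between MEF and the Sca1- CD73+ cells, while Ly6a and Cdkn1c lie above both.

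In the EpCAM- Sca1+ cells of day 6, 717 genes (4.42%) differed from the day 3 Sca1+ CD73- cells, 518 higher (3.19%) and 199 lower (1.23%). The gates differ, since CD73 was used only on day 3, and Nt5e was higher again at 21.1 and 36.9 CPM (log2 difference 3.13 ± 0.35 SE, adjusted p = 0.000858). Epithelial genes were higher in 14 of 42 and lower in 2, with Cdh1 at 43.4 and 42.6 CPM (log2 difference 1.24 ± 0.23 SE, adjusted p = 0.0149) and Epcam, although the gate selects against it, at 27.7 and 27.8 CPM (log2 difference 2.41 ± 0.29 SE, adjusted p = 0.00132). Pluripotency genes were higher in 11 of 47, with Utf1 at 26.1 and 26.3 CPM (log2 difference 5.19 ± 0.40 SE, adjusted p = 0.000191) and Esrrb at 13.4 and 13.5 CPM (log2 difference 4.37 ± 0.39 SE, adjusted p = 0.000285). Some genes that had fallen by day 3 were higher again, among them Col3a1 at 110.4 and 98.2 CPM (log2 difference 2.63 ± 0.53 SE, adjusted p = 0.0206), Postn at 4.69 and 4.51 CPM (log2 difference 4.19 ± 0.96 SE, adjusted p = 0.0339), Dkk3 at 47.9 and 61.1 CPM (log2 difference 4.39 ± 0.59 SE, adjusted p = 0.00255) and Penk at 18.9 and 13.4 CPM (log2 difference 5.77 ± 0.68 SE, adjusted p = 0.00113), all below both MEF libraries. Most such genes were not called: of 16 fibroblast identity genes 3 were higher and 1 lower than on day 3. Of 20 collagens 2 were higher and 0 lower, and of 20 collagen enzymes 0 were called. Cell cycle genes fell in part, with 4 of 32 mitosis genes and 2 of 36 replication genes lower and none higher, such as Cdc20 at 245 and 203 CPM (log2 difference -0.84 ± 0.18 SE, adjusted p = 0.0264) and Mcm5 at 144 and 146 CPM (log2 difference -0.92 ± 0.16 SE, adjusted p = 0.00924). When 1 library of either group was left out, 103 to 202 genes were called in this contrast.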

How the data were processed

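Poly-A RNA-seq libraries of mouse cells were analysed from the raw counts of reads per gene that the authors deposited, 1 table per library. Per the submitters' processing notes, STAR 2.3.0, Picard 1.100, HTSeq 0.6.0 and mm9 were used. The labels name a directional kit, while the names of the deposited tables mark the counting as not stranded. The levels of named genes whose exons overlap a gene on the opposite strand are uncertain for that reason (Aldoa, Bak1, Bcl2, Bcl3, Bmp4, Bmpr1a, Cacna2d2, Cbx7, Ccn2, Ccnd1, Cdc20, Cebpb, Cebpd, Cish, Col15a1, Col4a1, Col4a2, Cyp51, Ddit3, Des, Dkc1, Fn1, Gclm, Hoxa11, Igf2, Igf2os, Igfbp7, Il34, Itga4, Itga7, Mcm7, Mfap4, Ndufa4l2, Ndufs1, Nid2, Nnat, Ovol2, Pcsk1n, Pdha1, Penk, Pou5f1, Psph, Rb1, Shmt1, Slc6a9, Sox21, Ube2c, Umps, Xist and Yap1). Reads outside genes, ambiguous reads and reads with several placements were left out of library sizes. The depth of the 4 libraries compared ranged from 9284060 to 22506808 gene counts. Floors of 3 counts and 95% intervals cover counting error only.

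Samples were grouped by their descriptions. All 12 libraries in 6 groups entered an edgeR 4.0.16 quasi-likelihood fit (R 4.3.3) with TMM scaling, a low-count filter (16240 genes kept) and robust prior estimation (biological coefficient of variation 28.0%, residual degrees of freedom 6). Calls are Benjamini-Hochberg adjusted p under 0.05 over all genes kept, 2-sided. A list's median is that of the fitted log2 differences of its tested members with a count in MEF or the Sca1+ CD73- cells. Fitted values use a prior count of 0.125. Alternatives were DESeq2 1.42.0, RLE scaling, no filter, only the groups compared, the replicate number as a block, the share of reads outside genes as a covariate, an adjusted p under 0.01, a test against a fold of 2, and each library left out in turn.

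The 49 gene lists (1148 entries, of which 4 matched no gene and 61 did not pass the filter) and the comparison itself were chosen with earlier results of these data known. Named genes are the called genes with the largest rises and falls at 5 CPM or more in the higher group, and up to 3 called members per list and direction with the smallest adjusted p. Of these, 4 genes are not reported here. Genes named as not called were chosen from the lists after their values were seen. Promoter windows come from RefSeq on GRCm38.p6, matched by symbol. No coordinates of mm9 are given.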

Additional observations from a re-analysis of the deposited data

Results flagged for a closer look

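Among the genes named, 23 differed between the Sca1+ CD73- and the Sca1- CD73+ cells of day 3 by the edgeR test of the difference itself. Values are log2 differences, Sca1+ CD73- minus Sca1- CD73+. The higher genes were Ly6a at 3.2, Adamts5 at 2.2, Cdkn1c at 2.03, Igfbp6 at 1.98, Cited2 at 1.93, Cdkn2b at 1.89, Igfbp7 at 1.87, Aqp1 at 1.82, Mmp23 at 1.57, Tpm2 at 1.5, Igfbp3 at 1.33 and Ccnd1 at 1.02. The lower genes were Slc7a3 at -0.88, Foxd1 at -1.52, Tbx21 at -2.38, Myb at -2.38, Trh at -2.47, Pax7 at -2.6, Nr0b1 at -2.99, Trim9 at -3.21, Sox21 at -3.21, Nptx1 at -3.22 and Nt5e at -3.48. The gate itself selects on the products of Ly6a and Nt5e. Without 1 library, 4 to 6 of all genes tested were called in this contrast.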

How the results depend on the processing

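Against MEF, the count of 4876 called genes was within 1.5 times under RLE scaling, no filter, the covariate and DESeq2 (4884, 5301, 5490 and 5583). It was 2138 with only the groups compared, 2958 at an adjusted p under 0.01 and 1884 against a fold of 2. With 1 library left out it ran from 2946 to 6798. It was 6798 without MEF replicate 1, 5777 without MEF replicate 2, and 2946 and 3005 without Sca1+ CD73- replicate 1 or 2. Between the groups of day 3, where 65 genes were called, the counts were 459 with no filter, 700 with only these groups, 425 with the covariate, 445 with DESeq2, 6 at an adjusted p under 0.01, 5 against a fold of 2 and 4 to 6 without 1 library. From day 3 to day 6, where 717 were called, they were 1362, 2574, 2129, 1634, 214 and 139 in the same order, and 103 to 202 without 1 library. A stricter threshold or a required fold lowers a count by construction, and the causes of the other shifts were not tested. Of 229 called named genes 45 lost the call under some alternative in which they were tested, and 0 changed sign. Genes that the count filter of an alternative removed were not counted as lost. Replicate numbers were used to name samples, and a pairing across groups was not assumed. Same-numbered deviations correlated at -0.147 to 0.351 over 15 pairs of groups. The highest value, 0.351, was that of MEF and the Sca1+ CD73- cells, so a shared structure between these groups remains possible. With the replicate block 4765, 75 and 649 genes were called in the 3 contrasts. Depth limits calls of genes near the floor of 3 counts, which is 0.113 CPM in MEF and 0.0667 CPM in the Sca1+ CD73- cells.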
